A study of Mus musculus with 6 samples.

Results

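The genes described here encode the DNA replication machinery and its S phase regulators. They were chosen as a list of 48 gene symbols, and every probe annotated with one of them was taken. The list covers origin licensing, the replicative helicase, polymerases, nucleotide supply, E2F transcription factors and S phase repair. Of the 48 genes, 47 were on the array, with 50 probes among 26423, and Pcna was not analysed here. Of these 47 genes, 45 passed the filter on low values and were tested, among 15459 genes in all.

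RNA of mouse gonadal cells, strain ICR, was measured on 6 single-colour (Cy5) microarrays, 2 per group. PGC colonies were grown from total gonadal cells of 67 embryos at E11.5, where PGC stands for primordial germ cells. GSC colonies were grown from total testicular cells of 80 newborn to P2 mice. GSC is glossed in the labels as glandular stem cells. Both kinds of colony formed over 7 days in 5% O2 on laminin at 200 ng/cm2 with epidermal growth factor at 10 ng/ml, and were picked before extraction. CD49f+ sorted cells were taken without culture from 100 newborn to P2 mice. They were selected with magnetic beads against CD49f, which is integrin alpha-6. Their oxygen is labelled only as physiological hypoxia. Animals were pooled, and it is not stated that replicate arrays had independent preparations behind them. P-values can therefore reflect technical variation alone. Culture and selection differ together between colonies and sorted cells, and the source stage differs as well for PGC colonies, so these cannot be told apart.

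Before S phase, the origin recognition complex, Cdc6 and Cdt1 load the ring-shaped MCM helicase onto replication origins. At S phase entry the Cdc7 kinase and cyclin E with its kinase partner act on these loaded rings, and Cdc45 and the GINS complex join to form the active helicase. Polymerases, the sliding clamp and its loader, and the enzymes that join Okazaki fragments then copy the DNA. Many of these genes are transcribed under E2F factors, of which E2F1, E2F2 and E2F3 act mainly as activators and E2F7 and E2F8 as repressors. In the newborn mouse testis, Sertoli cells are known to divide, whereas male germ cells around birth are known to rest before they resume division.

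Levels are on a log2 scale after normalization between arrays, so that a difference of 1 is a 2-fold change. The 30th percentile of an array, which served as the filter's level, lay at 7.82. The median deposited intensity was 587.4 and 541 in PGC colonies, 606.5 and 558.1 in GSC colonies, and 393.4 and 406.5 in sorted cells. A gene was called at a limma adjusted p (Benjamini-Hochberg over all genes tested) under 0.05. Each difference is given ± its SE, from 2 arrays a group. In bulk samples, fewer cells of a type and less RNA per cell cannot be told apart.

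Replication genes were lower in both kinds of colony than in sorted cells. In GSC colonies 39 of 45 genes were lower and 3 were higher than in sorted cells. These are 93.3% of the genes, against a background of 47.1% called among all genes. In the downward direction alone the shares were 86.7% of replication genes and 24.5% of all genes. The median difference was -0.998, a 1.997-fold lower level, whereas the median over all genes was -0.01. In PGC colonies 35 of 45 genes were lower and 2 were higher than in sorted cells, against a background of 46% called and 23.2% called lower among all genes. The median difference there was -0.83, a 1.78-fold lower level, beside -0.02 over all genes. Falls were moderate in size. Those that passed ran from -0.50 to -1.96 in GSC colonies and from -0.35 to -2.04 in PGC colonies. At least 2-fold falls were called for 22 of 45 replication genes in GSC colonies and for 16 of 45 in PGC colonies, beside 10.2% of all genes in each comparison. The arrays of the 2 groups did not overlap for 43 replication genes in GSC colonies, 40 of them lower and 3 higher, where 75.6% of all genes did not overlap, 38.8% lower and 36.9% higher. In PGC colonies 42 did not overlap, 40 lower and 2 higher, where 71.1% of all genes did not, 36.4% lower and 34.7% higher. Both comparisons use the same sorted arrays. Without normalization between arrays the median of all genes stood at 0.465 for GSC colonies and 0.423 for PGC colonies. Among replication genes 24 were then called lower and 4 higher in GSC colonies, and 19 lower and 3 higher in PGC colonies. The median of the replication genes relative to that of all genes was then -0.91 in GSC colonies and -0.76 in PGC colonies. Of the calls among all genes, 17.5% and 19.5% were then lower, beside 52.1% and 50.5% after normalization.

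**Figure D1:**
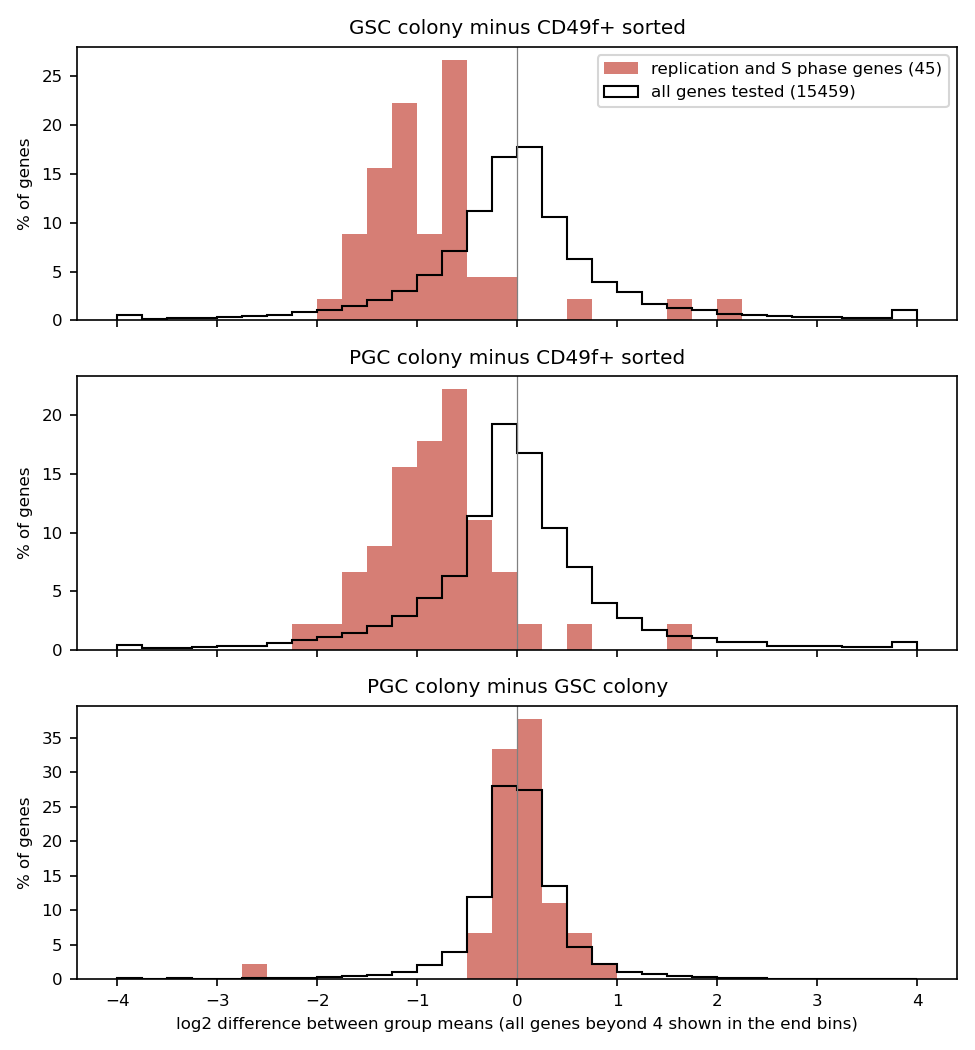
Log2 difference between group means (x axis, log2 units) for 45 replication and S phase genes (filled bars) and for all 15459 genes tested (outline), each as a percentage of its set (y axis), in 3 comparisons. The replication genes lie below 0 in both comparisons of colonies with sorted cells, with medians of -0.998 and -0.83, and around 0 between the colony groups, with a median of 0.09.

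The 2 genes under the filter were Cdc6, an origin licensing factor, and Chek1, a checkpoint kinase. Cdc6 measured 6.85 and 6.38 in PGC colonies, 6.88 and 6.87 in GSC colonies, and 7.65 and 7.57 in sorted cells. All of these values lie under the filter's level, so no fold is given. Chek1 measured between 6.71 and 7.05 on the 6 arrays, also under that level.

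**Figure D2:**
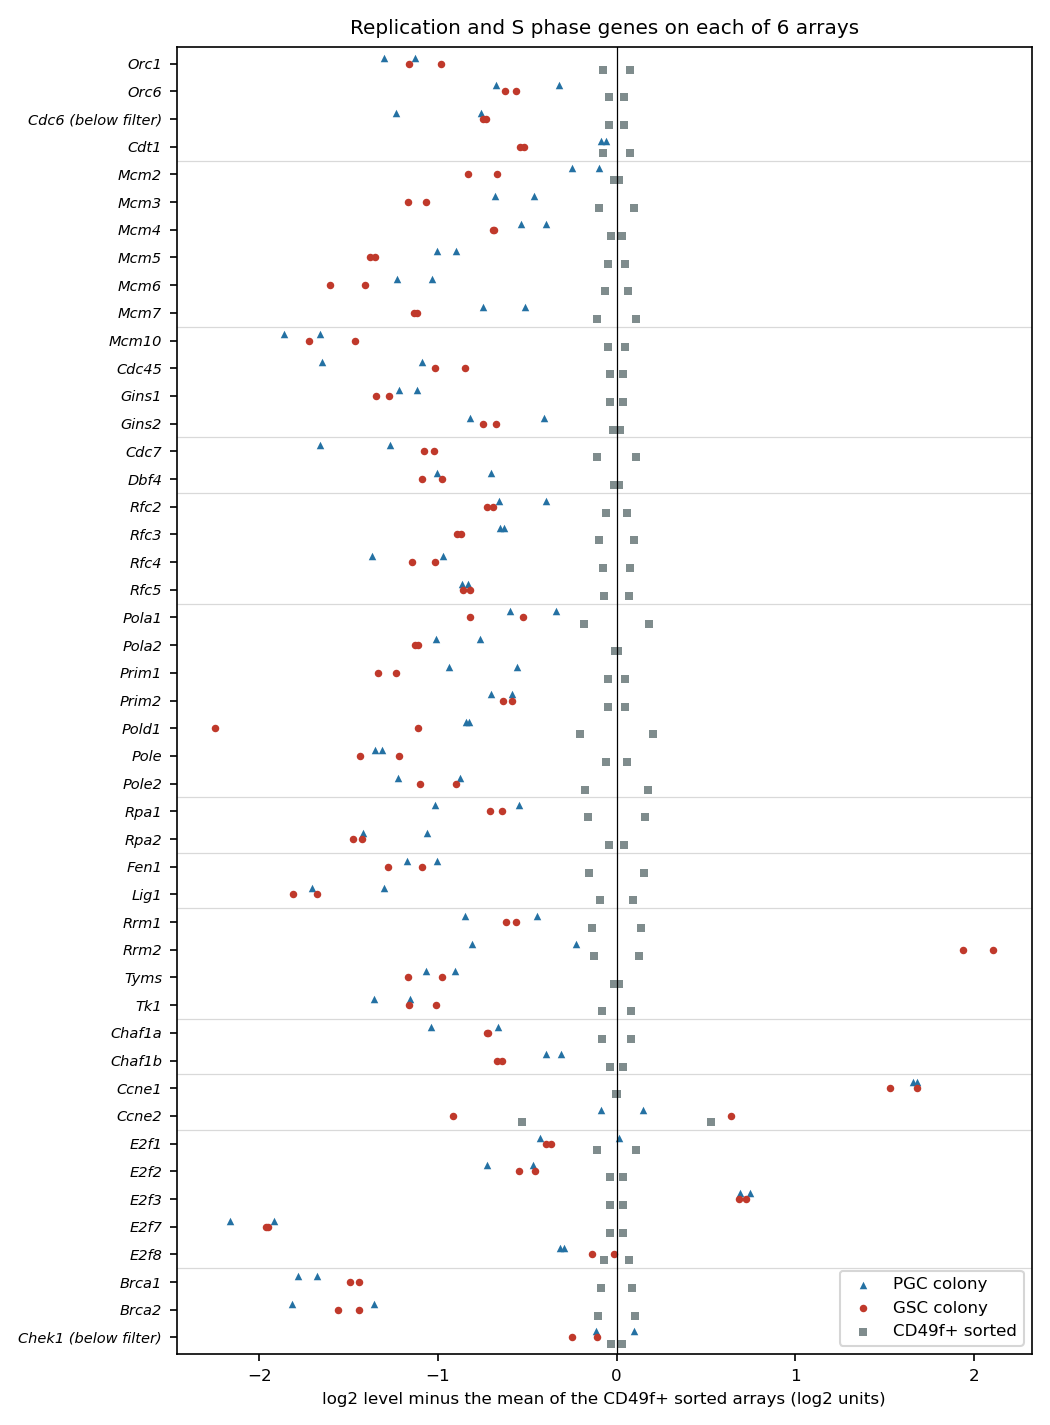
Level of each of 47 genes on each of 6 arrays (points) relative to the mean of the 2 sorted arrays (x axis, log2 units). Most colony points lie left of 0, while Ccne1 and E2f3 in both colony groups and Rrm2 in GSC colonies lie right of it.

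Among origin licensing genes, Orc1 fell furthest. Orc1, the largest subunit of the origin recognition complex, measured 8.32 and 8.49 in PGC colonies, 8.46 and 8.64 in GSC colonies, and 9.70 and 9.54 in sorted cells. The colony groups overlapped each other and both lay below the sorted arrays. It fell by 1.21 ± 0.13 in PGC colonies and by 1.07 ± 0.13 in GSC colonies (SE; adjusted p = 0.00047 and 0.00081). Orc6, the smallest subunit, fell by 0.50 ± 0.14 in PGC colonies and by 0.59 ± 0.14 in GSC colonies. Each Orc6 call changed in 5 of 16 alternative settings. Cdt1, which brings the MCM ring to the origin, behaved differently in the colony groups. It measured 13.34 and 13.36 in PGC colonies, 12.91 and 12.88 in GSC colonies, and 13.35 and 13.50 in sorted cells. PGC colonies overlapped sorted cells, while GSC colonies lay below both. Cdt1 fell by 0.53 ± 0.11 in GSC colonies (adjusted p = 0.0080), and its difference in PGC colonies was -0.07 ± 0.11 (adjusted p = 0.63). Without normalization between arrays the Orc6 and Cdt1 differences in GSC colonies were 0.03 and 0.08, so their direction depends on this step. In PGC colonies the Cdt1 difference was then 0.471 and passed as higher (adjusted p = 0.0168).

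All 6 genes of the MCM helicase ring were lower in GSC colonies, and 5 of 6 were lower in PGC colonies. Mcm6 measured 12.18 and 12.37 in PGC colonies, 12.001 and 11.81 in GSC colonies, and 13.47 and 13.35 in sorted cells. Mcm5 measured 12.75 and 12.85 in PGC colonies, 12.40 and 12.37 in GSC colonies, and 13.80 and 13.70 in sorted cells. For both genes the 3 groups were separate, with sorted cells highest and GSC colonies lowest. Mcm6 fell by 1.51 ± 0.13 in GSC colonies (adjusted p = 0.00019) and by 1.13 ± 0.13 in PGC colonies (adjusted p = 0.00067). Mcm5 fell by 1.36 ± 0.11 in GSC colonies (adjusted p = 0.00012) and by 0.95 ± 0.11 in PGC colonies (adjusted p = 0.000615). The deposited intensities, before the normalization used here, showed the same order for Mcm6. They were 5110 and 5933 in PGC colonies, 4608 and 4155 in GSC colonies, and 8369 and 8035 in sorted cells. Mcm7 measured 12.36 and 12.59 in PGC colonies, 11.97 and 11.99 in GSC colonies, and 13.22 and 12.99 in sorted cells, again with 3 separate groups. Mcm3 measured 11.92 and 12.14 in PGC colonies, 11.53 and 11.43 in GSC colonies, and 12.70 and 12.4997 in sorted cells. Mcm3 and Mcm7 fell by 1.12 ± 0.13 and 1.13 ± 0.14 in GSC colonies and by 0.57 ± 0.13 and 0.63 ± 0.14 in PGC colonies. Mcm4 fell by 0.69 ± 0.11 in GSC colonies and by 0.46 ± 0.11 in PGC colonies. Without normalization its difference in PGC colonies was 0.0929, and the call there changed in 4 of 16 alternative settings. Mcm2, a subunit that also binds histones, measured 12.30 and 12.45 in PGC colonies, 11.71 and 11.88 in GSC colonies, and 12.56 and 12.53 in sorted cells. It fell by 0.75 ± 0.12 in GSC colonies (adjusted p = 0.0025). In PGC colonies its difference was -0.17 ± 0.12 and did not pass (adjusted p = 0.29). The order of its deposited intensities differed from that after normalization, with 5491 and 6222 in PGC colonies, 3742 and 4366 in GSC colonies, and 4465 and 4685 in sorted cells. Without normalization between arrays the Mcm2 difference in PGC colonies was 0.345.

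Genes that turn the loaded ring into an active helicase were lower in both colony groups. Mcm10, which acts at origin firing and is no part of the ring, measured 10.68 and 10.48 in PGC colonies, 10.88 and 10.62 in GSC colonies, and 12.39 and 12.29 in sorted cells. The colony groups overlapped each other. Mcm10 fell by 1.76 ± 0.14 in PGC colonies and by 1.59 ± 0.14 in GSC colonies (adjusted p = 0.00013 and 0.00019). Cdc45, the helicase cofactor, measured 11.41 and 10.84 in PGC colonies, 11.48 and 11.64 in GSC colonies, and 12.53 and 12.46 in sorted cells, and fell by 1.37 ± 0.19 and 0.93 ± 0.19 in the PGC and GSC colonies. Gins1 and Gins2 encode subunits of the GINS complex. Gins1 measured 11.35 and 11.45 in PGC colonies, 11.22 and 11.30 in GSC colonies, and 12.61 and 12.53 in sorted cells. Its differences from sorted cells were -1.17 ± 0.11 in PGC colonies and -1.31 ± 0.11 in GSC colonies. Gins2 fell by 0.61 ± 0.15 in PGC colonies and by 0.71 ± 0.15 in GSC colonies. The Gins2 calls changed in 4 and 2 of 16 alternative settings. The other Gins1 probe gave -1.39 ± 0.43 and -2.53 ± 0.43 for these comparisons, from levels of 10.29 and 10.56 in PGC colonies, 8.58 and 10.02 in GSC colonies, and 11.88 and 11.76 in sorted cells. Its GSC colony arrays lay far apart. The firing kinase gene Cdc7 measured 11.89 and 11.502 in PGC colonies, 12.09 and 12.14 in GSC colonies, and 13.27 and 13.05 in sorted cells. Cdc7 fell by 1.47 ± 0.16 in PGC colonies and by 1.05 ± 0.16 in GSC colonies. Dbf4, its activating subunit, measured 11.86 and 12.16 in PGC colonies, 11.78 and 11.89 in GSC colonies, and 12.85 and 12.88 in sorted cells. Its differences were -0.85 ± 0.13 in PGC colonies and -1.03 ± 0.13 in GSC colonies.

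Genes of the replication fork followed. The clamp loader genes Rfc2, Rfc3, Rfc4 and Rfc5, which place the sliding clamp on DNA, were called lower in both colony groups. Their differences ran from -0.53 to -1.17 in PGC colonies and from -0.71 to -1.08 in GSC colonies, with Rfc4 at the lower end in each. Rfc2, at the upper end, stood at 0.0103 in PGC colonies without normalization, and its call there changed in 4 of 16 alternative settings. Rfc4 measured 12.07 and 11.68 in PGC colonies, 11.90 and 12.03 in GSC colonies, and 12.97 and 13.12 in sorted cells. The 7 polymerase and primase genes were called lower in GSC colonies without exception, and 5 of 7 were called lower in PGC colonies. Pole, the catalytic subunit of polymerase epsilon on the leading strand, measured 9.25 and 9.29 in PGC colonies, 9.17 and 9.39 in GSC colonies, and 10.66 and 10.55 in sorted cells. It fell by 1.33 ± 0.12 in each colony group (adjusted p = 0.000245 in PGC colonies and 0.000242 in GSC colonies). Pole2, its second subunit, measured 11.16 and 11.51 in PGC colonies, 11.49 and 11.29 in GSC colonies, and 12.21 and 12.56 in sorted cells. It fell by 1.05 ± 0.18 in PGC colonies and by 1.00 ± 0.18 in GSC colonies. Priming genes fell with them. Prim1, the primase subunit that makes the RNA primer, measured 11.23 and 11.61 in PGC colonies, 10.93 and 10.83 in GSC colonies, and 12.21 and 12.12 in sorted cells, and fell by 0.75 ± 0.15 in PGC colonies and by 1.28 ± 0.15 in GSC colonies. Prim2, the other primase subunit, fell by 0.64 ± 0.11 in PGC colonies and by 0.61 ± 0.11 in GSC colonies. Pola2, an accessory subunit of polymerase alpha, measured 10.59 and 10.84 in PGC colonies, 10.49 and 10.47 in GSC colonies, and 11.61 and 11.59 in sorted cells. It differed by -0.89 ± 0.12 in PGC colonies and by -1.12 ± 0.12 in GSC colonies. Pola1, the catalytic subunit of polymerase alpha, fell by 0.67 ± 0.18 in GSC colonies, and its difference in PGC colonies was -0.47 ± 0.18 (adjusted p = 0.079).

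Pold1, the catalytic subunit of polymerase delta, had the most uneven arrays of the fork genes. It measured 9.39 and 9.41 in PGC colonies, 7.99 and 9.13 in GSC colonies, and 10.44 and 10.04 in sorted cells. GSC colony replicate 1 lay well below replicate 2. Pold1 fell by 1.68 ± 0.35 in GSC colonies (adjusted p = 0.0089), and this difference was -1.11 without replicate 1, where it still passed, and -2.24 without replicate 2. The call was lost without sorted replicate 1 (-1.48; adjusted p = 0.0503). In PGC colonies the difference was -0.83 ± 0.35 (adjusted p = 0.10), and in a fit of PGC colonies and sorted cells alone it passed (adjusted p = 0.0029).

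Lig1, the DNA ligase that seals Okazaki fragments, showed the largest fall of the fork genes in both comparisons. It measured 12.85 and 13.25 in PGC colonies, 12.88 and 12.74 in GSC colonies, and 14.46 and 14.64 in sorted cells. The colony groups overlapped each other, and each lay more than 1 log2 unit below the sorted arrays. Lig1 differed by -1.50 ± 0.16 in PGC colonies and by -1.74 ± 0.16 in GSC colonies (adjusted p = 0.00053 and 0.00027). Fen1, the flap nuclease that trims these fragments, measured 12.38 and 12.55 in PGC colonies, 12.28 and 12.47 in GSC colonies, and 13.40 and 13.71 in sorted cells, and fell by 1.09 ± 0.15 in PGC colonies and by 1.18 ± 0.15 in GSC colonies. Rpa2, a subunit of the single-strand binding protein RPA, measured 12.15 and 11.79 in PGC colonies, 11.74 and 11.79 in GSC colonies, and 13.26 and 13.17 in sorted cells, and fell by 1.24 ± 0.15 and 1.45 ± 0.15. Rpa1, its large subunit, fell by 0.78 ± 0.19 in PGC colonies and by 0.68 ± 0.19 in GSC colonies. The Rpa1 calls changed in 3 and 4 of 16 alternative settings. Chaf1a and Chaf1b, subunits of the factor that deposits histones behind the fork, fell by 0.72 ± 0.15 and 0.65 ± 0.10 in GSC colonies, and Chaf1a fell by 0.85 ± 0.15 in PGC colonies. The Chaf1b difference in PGC colonies was -0.35 ± 0.10 (adjusted p = 0.033), a call that changed in 9 of 16 alternative settings, and it was 0.17 without normalization.

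Nucleotide supply genes split. Tyms, thymidylate synthase, measured 9.41 and 9.25 in PGC colonies, 9.15 and 9.34 in GSC colonies, and 10.30 and 10.33 in sorted cells. It fell by 0.98 ± 0.12 in PGC colonies and by 1.07 ± 0.12 in GSC colonies. Tk1, the S phase thymidine kinase, measured 9.84 and 9.645 in PGC colonies, 9.84 and 9.99 in GSC colonies, and 11.08 and 10.92 in sorted cells. For both genes the colony groups overlapped and lay below the sorted arrays. Tk1 fell by 1.26 ± 0.13 in PGC colonies and by 1.08 ± 0.13 in GSC colonies. Rrm1, the large subunit of ribonucleotide reductase, fell by 0.65 ± 0.17 in PGC colonies and by 0.59 ± 0.17 in GSC colonies (adjusted p = 0.022 and 0.030). The Rrm1 calls changed in 3 and 5 of 16 alternative settings. Its other probe lay between 7.35 and 7.77, under the filter's level on all 6 arrays. Rrm2, the small S phase subunit of the same enzyme, did the opposite in GSC colonies. It measured 11.90 and 11.32 in PGC colonies, 14.07 and 14.23 in GSC colonies, and 12.25 and 12.0002 in sorted cells. Both GSC colony arrays lay above all others, and the PGC colony arrays lay below the sorted ones. The deposited intensities of its 1 probe were 4158 and 2791 in PGC colonies, 20420 and 23603 in GSC colonies, and 3599 and 3216.5 in sorted cells. On that scale PGC colony replicate 1 lay above both sorted arrays, unlike after normalization. Rrm2 rose by 2.02 ± 0.21 in GSC colonies, 4.07-fold (adjusted p = 0.00042). In PGC colonies its difference from sorted cells was -0.52 ± 0.21 and did not pass (adjusted p = 0.092). Between the colony groups it was 5.83-fold lower in PGC colonies, at -2.54 ± 0.21 (adjusted p = 0.00074). Over all alternatives run, the difference of GSC colonies from sorted cells stayed between 1.90 and 2.67 and that of PGC from GSC colonies between -2.83 and -2.25, past the threshold each time.

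**Figure D3:**
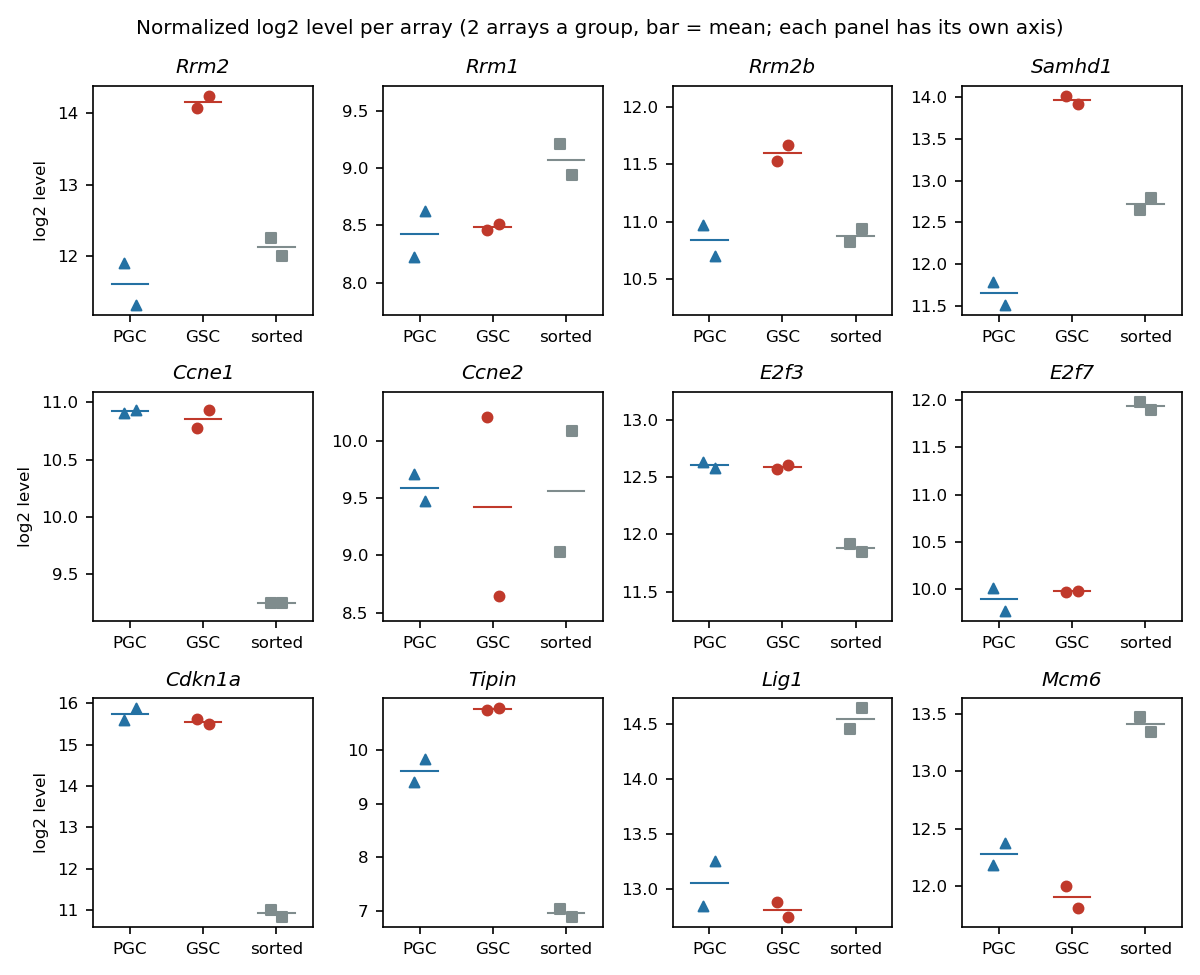
Normalized log2 level (y axis, own range in each panel) of 12 genes on each array, with 2 points and a bar for the mean per group. Rrm2, Rrm2b and Samhd1 were highest in GSC colonies, Ccne1, E2f3 and Cdkn1a were high in both colony groups, and Lig1, Mcm6 and E2f7 were highest in sorted cells.

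Cyclin E and E2F genes did not move as one. Ccne1, which encodes cyclin E1, measured 10.91 and 10.93 in PGC colonies, 10.78 and 10.93 in GSC colonies, and 9.25 and 9.25 in sorted cells. It rose by 1.67 ± 0.11 in PGC colonies, 3.19-fold, and by 1.61 ± 0.11 in GSC colonies, 3.04-fold (adjusted p = 5.7e-05 and 6.2e-05). Ccne2, which encodes cyclin E2, had the widest spread of all replication genes. Its main probe measured 9.71 and 9.47 in PGC colonies, 10.20 and 8.65 in GSC colonies, and 9.03 and 10.09 in sorted cells, so all groups overlapped. The other Ccne2 probe lay between 9.01 and 9.22 on the 6 arrays, and neither probe passed in any comparison.

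E2f3, an activator of S phase genes, rose with Ccne1. It measured 12.63 and 12.58 in PGC colonies, 12.57 and 12.61 in GSC colonies, and 11.92 and 11.85 in sorted cells. E2f3 rose by 0.72 ± 0.10 in PGC colonies and by 0.71 ± 0.10 in GSC colonies (adjusted p = 0.0017 and 0.0018). E2f7, a repressor that is itself transcribed in S phase, showed the largest fall of the 45 genes in both comparisons with sorted cells. It measured 10.02 and 9.77 in PGC colonies, 9.97 and 9.98 in GSC colonies, and 11.97 and 11.90 in sorted cells. E2f7 differed by -2.04 ± 0.12 in PGC colonies, 4.12-fold, and by -1.96 ± 0.12 in GSC colonies, 3.88-fold (adjusted p = 4.4e-05 and 4.8e-05). Its close relative E2f8 did not pass, with -0.31 ± 0.11 in PGC colonies and -0.07 ± 0.11 in GSC colonies (adjusted p = 0.070 and 0.63). E2f1 did not pass either, with -0.21 ± 0.17 and -0.38 ± 0.17 (adjusted p = 0.38 and 0.12). E2f2 fell by 0.60 ± 0.13 in PGC colonies and by 0.50 ± 0.13 in GSC colonies, calls that changed in 2 and 4 of 16 alternative settings.

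Brca1 and Brca2 are recombination genes that protect and repair stalled forks. Brca2 measured 8.93 and 9.39 in PGC colonies, 9.30 and 9.19 in GSC colonies, and 10.64 and 10.85 in sorted cells. Brca2 fell by 1.59 ± 0.18 in PGC colonies and by 1.50 ± 0.18 in GSC colonies (adjusted p = 0.00057 and 0.00073). Brca1 measured 7.04 and 7.15 in PGC colonies, 7.33 and 7.38 in GSC colonies, and 8.91 and 8.74 in sorted cells. Both colony groups lay under the filter's level, so its fold is a lower bound. Brca1 passed the filter only through the sorted arrays, where it is high, so no test is given. Set against the filter's level, Brca1 was at least 2.01-fold lower in each colony group. Among the 44 replication genes at or above the 30th percentile on all 6 arrays, which leave it out, 34 were lower in PGC colonies and 38 in GSC colonies.

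The colony groups, one of embryonic and one of postnatal source, grew under the same conditions and were set against each other next. Of 45 replication genes, 3 were higher and 1 was lower in PGC colonies, against a background of 15.1% called among all genes, or 7.08% higher and 7.98% lower. The median difference was 0.09, beside 0.01 over all genes. The gene that was lower was Rrm2, also the 1 gene at least 2-fold lower, beside 3.15% of all genes. The arrays of the colony groups did not overlap for 20 replication genes, 15 higher and 5 lower in PGC colonies, where 56.7% of all genes did not overlap, 28.8% higher and 27.9% lower. The 3 that were higher were Mcm2, by 0.58 ± 0.12, Mcm3, by 0.55 ± 0.13, and Cdt1, by 0.46 ± 0.11 (adjusted p = 0.024, 0.042 and 0.040). These calls depended on the fit. In a fit of only the 2 colony groups, all 3 missed the threshold (adjusted p = 0.060 for Mcm2, 0.073 for Mcm3 and 0.078 for Cdt1). The count of higher genes was 6 when only genes at or above the 30th percentile on all 6 arrays were tested. All 6 MCM ring genes had non-overlapping groups with PGC colonies above GSC colonies, at differences from 0.23 to 0.58. Mcm5, Mcm7 and Prim1 came near the threshold, with 0.41 ± 0.11, 0.49 ± 0.14 and 0.54 ± 0.15 (adjusted p = 0.052, 0.059 and 0.065).

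Promoter sequence was examined because these genes are known E2F targets and moved largely together. RefSeq windows of 300 bases (GRCm38.p6), from 250 before to 50 after the annotated gene start, were at hand for 41 of the 48 genes, in 48 windows. Gins1, Gins2, Mcm4, Rfc2, Prim2, Pole and Ccne2 had none. An E2F motif was taken as TTTCCCGC, TTTGGCGC, TTTCGCGC or TTTGCCGC on either strand, and overlapping matches were each counted. It was present in 33.3% of the 48 windows, against 2.26% of 32851 windows of all genes. The genes with a match were Orc1, Cdc6, Cdt1, Mcm3, Mcm5, Mcm6, Mcm7, Rfc3, Pola1, Pold1, Pole2, Lig1, E2f2, E2f3, E2f7 and Brca2. The cell cycle homology motif TTTGAA was present in 18.8% of the replication windows and in 17.9% of all windows. In 26 windows of a list of mitosis genes the E2F motif was present in 3.85% and TTTGAA in 73.1%. CCAAT was present in 52.1% of the replication windows against 37.4% of all, and the GC box GGGCGG in 70.8% against 35.7%. These are matches of letters only, on both strands, and show no binding.

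Below are the 160 bases before the start of 3 genes that were lower in both colony groups and of the 3 that were higher in GSC colonies, chosen after their matches were seen. They are shown because the motif stands in windows of both falling and rising genes. The Mcm6 stretch is chr1:128359706-128359865 on the minus strand, Mcm5 is chr8:75109349-75109508 on the plus strand and Orc1 is chr4:108579294-108579453 on the plus strand. Rrm2 is chr12:24708094-24708253 on the plus strand, Ccne1 is chr7:38107491-38107650 on the minus strand and E2f3 is chr13:29986064-29986223 on the minus strand. Each is written 5′ to 3′ on the gene's strand, with bases of an E2F motif in capitals.
Mcm6: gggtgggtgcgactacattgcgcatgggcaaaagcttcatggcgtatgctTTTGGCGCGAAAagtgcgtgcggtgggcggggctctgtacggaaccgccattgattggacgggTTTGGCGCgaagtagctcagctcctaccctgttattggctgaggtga
Mcm5: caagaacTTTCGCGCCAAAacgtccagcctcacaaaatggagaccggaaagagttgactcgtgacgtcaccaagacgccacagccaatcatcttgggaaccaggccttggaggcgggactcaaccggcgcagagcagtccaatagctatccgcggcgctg
Orc1: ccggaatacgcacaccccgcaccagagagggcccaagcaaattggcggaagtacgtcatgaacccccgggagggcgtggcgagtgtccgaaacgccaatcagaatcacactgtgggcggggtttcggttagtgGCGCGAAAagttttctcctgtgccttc
Rrm2: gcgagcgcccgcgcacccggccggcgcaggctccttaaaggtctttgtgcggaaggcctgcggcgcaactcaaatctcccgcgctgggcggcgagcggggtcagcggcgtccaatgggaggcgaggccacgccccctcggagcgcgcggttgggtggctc
Ccne1: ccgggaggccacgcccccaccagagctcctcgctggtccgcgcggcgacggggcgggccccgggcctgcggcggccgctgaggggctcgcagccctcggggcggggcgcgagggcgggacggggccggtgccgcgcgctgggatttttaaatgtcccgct
E2f3: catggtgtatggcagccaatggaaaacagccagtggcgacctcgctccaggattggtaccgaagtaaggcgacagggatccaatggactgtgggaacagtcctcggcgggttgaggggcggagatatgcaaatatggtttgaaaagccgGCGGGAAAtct
Mcm6 holds 3 matches, of which the first pair, 110 and 106 bases before the start, overlap, and the third lies 47 bases before it. Mcm5 holds the same kind of overlapping pair at 153 and 149 bases, and Orc1 holds 1 match at 27 bases. E2f3, which rose, has 2 windows. The one shown holds 1 match at 11 bases, and the other holds none. No such match stands in the Rrm2 and Ccne1 windows, which says only that these letters are not in them.

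**Figure D4:**
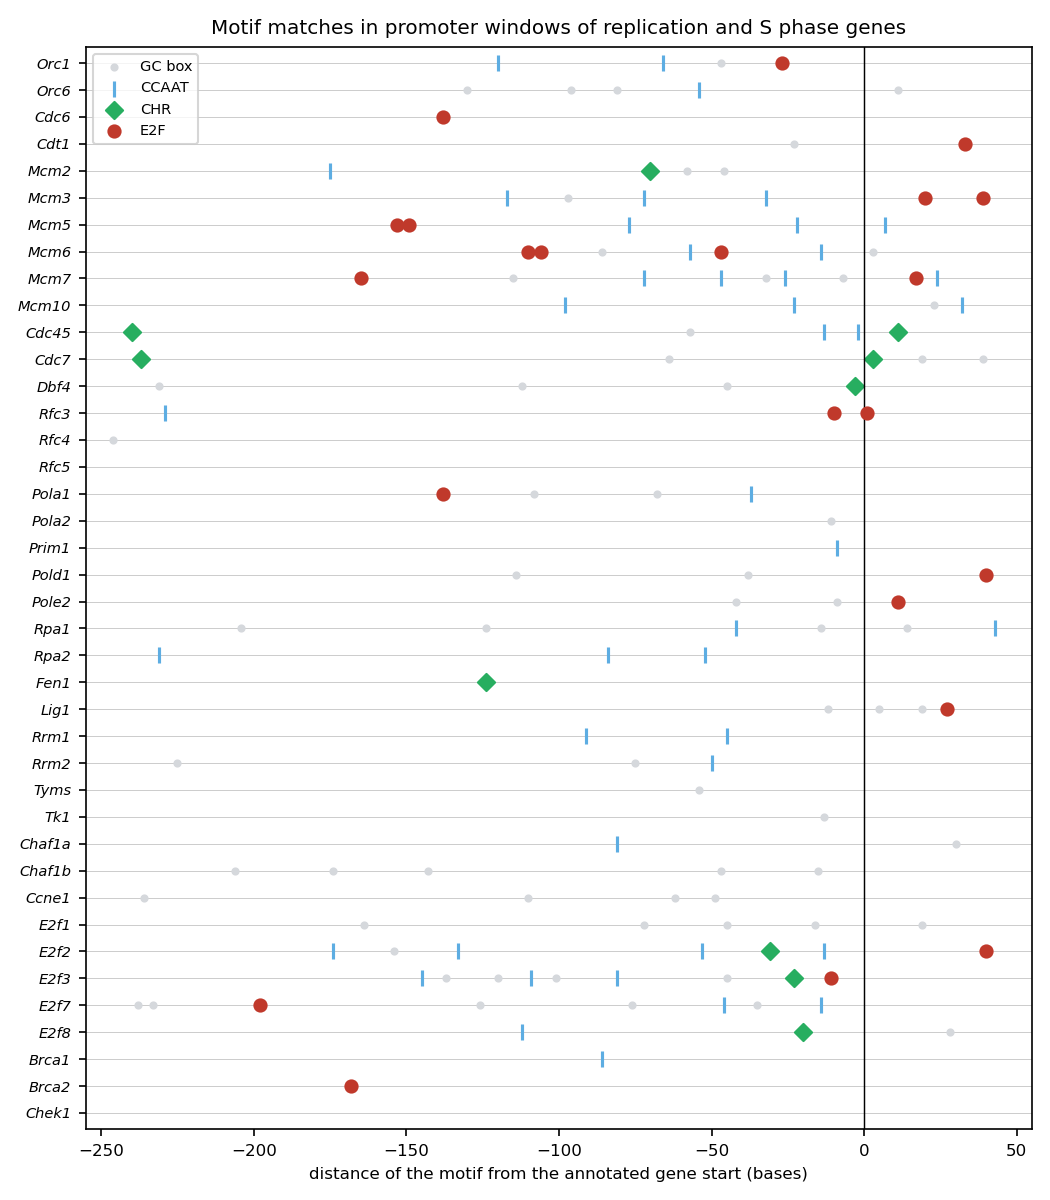
Position of motif matches (x axis, bases from the annotated start, negative values lying before it) in the promoter windows of 40 replication genes that have both a window and a probe (y axis), with all windows of a gene on 1 line. E2F matches (red circles) occur in 16 genes, from 198 bases before to 40 bases after the start.

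Other genes of the pathway, from lists that hold none of the 48, moved the same way for the most part. Of 34 further replication genes, 24 were lower and 2 higher in GSC colonies, with a median of -0.75. In PGC colonies 20 were lower and 3 higher, with a median of -0.61. The lower shares were 70.6% and 58.8%, beside 24.5% and 23.2% of all genes. Dscc1, counted as lower, passed the filter only through the sorted arrays, where it is high. Tipin, described below, is counted as higher. Ticrr, which loads Cdc45, fell by 1.94 ± 0.13 in each colony group. Timeless, which stabilizes the moving fork, measured 10.79 and 11.02 in PGC colonies, 10.68 and 10.46 in GSC colonies, and 12.47 and 12.51 in sorted cells, and fell by 1.92 ± 0.13 in GSC colonies. Tipin, the gene of its binding partner, moved the other way, at 9.39 and 9.82 in PGC colonies, 10.75 and 10.77 in GSC colonies, and 7.04 and 6.89 in sorted cells. Tipin was at least 3.45-fold higher in PGC colonies and at least 7.66-fold higher in GSC colonies, since the sorted arrays lay under the filter's level. Tipin passed the filter only through the colony arrays, where it is high, so no test is given. Between the colony groups it was lower in PGC colonies, at -1.15 ± 0.16 (adjusted p = 0.0060). Pole4, an accessory subunit of polymerase epsilon, was higher by 0.84 ± 0.12 in PGC colonies and by 0.49 ± 0.12 in GSC colonies. Chtf18, a subunit of an alternative clamp loader, fell by 1.83 ± 0.14 in PGC colonies.

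Of 17 further E2F, RB and S phase cyclin genes, 12 were lower and 2 higher in GSC colonies, and 10 were lower and 1 higher in PGC colonies. The lower shares were 70.6% and 58.8%, beside 24.5% and 23.2% of all genes. Ccna2, the S phase cyclin A2, fell by 1.88 ± 0.12 in PGC colonies and by 1.49 ± 0.12 in GSC colonies. Cdc25a, the phosphatase that activates its kinase, measured 8.98 and 10.65 in GSC colonies and 11.90 and 11.65 in sorted cells, a difference of -1.96 ± 0.49 with a wide gap between the colony arrays. Leaving out the first GSC array gave -1.12, leaving out the second gave -2.80, and its call changed in 5 of 16 alternative settings, such as without sorted replicate 1 (-1.84; adjusted p = 0.077). Tfdp2, which encodes a dimer partner of E2F factors, fell by 1.34 ± 0.13 in PGC colonies. The rises were smaller. Fbxw7, part of a ubiquitin ligase that marks cyclin E for breakdown, rose by 0.61 ± 0.12 in PGC colonies and by 0.43 ± 0.12 in GSC colonies. E2f4, an E2F factor that acts mainly in repression, rose by 0.43 ± 0.11 in GSC colonies, a call that changed in 4 of 16 settings. Between the colony groups Lin9, a subunit of the DREAM complex, was 0.62 ± 0.11 higher in PGC colonies (adjusted p = 0.015). Of 23 further repair genes, 16 were lower in each colony group, and 1 was higher in GSC colonies and 2 in PGC colonies. The lower share was 69.6% in each, beside 24.5% of all genes in GSC colonies and 23.2% in PGC colonies. Fancd2, counted as lower, passed the filter only through the sorted arrays, where it is high. Bard1, the partner of Brca1, fell by 2.03 ± 0.14 in PGC colonies and by 1.79 ± 0.14 in GSC colonies, and the nuclease gene Exo1 differed by -2.13 ± 0.12 in PGC colonies and by -1.69 ± 0.12 in GSC colonies. Rad9a, a subunit of the checkpoint clamp, rose by 0.47 ± 0.11 in PGC colonies and by 0.45 ± 0.11 in GSC colonies. Rad1, another subunit of that clamp, rose by 0.45 ± 0.14 in PGC colonies, a call that changed in 4 of 16 settings.

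Of 16 further nucleotide supply genes, 7 were lower and 2 higher in each colony group. The called share of 56.2% in each was near that of all genes, at 47.1% in GSC colonies and 46% in PGC colonies. Lower calls made up 43.8% in each, beside 24.5% and 23.2% of all genes. In GSC colonies the higher ones were Samhd1 and Rrm2b, both tied to the same pool as Rrm2. Samhd1, an enzyme that breaks down deoxynucleotides, measured 11.79 and 11.52 in PGC colonies, 14.00 and 13.92 in GSC colonies, and 12.64 and 12.79 in sorted cells. It was 1.24 ± 0.14 higher in GSC colonies than in sorted cells (adjusted p = 0.00051). In PGC colonies it was lower than in sorted cells, at -1.06 ± 0.14 (adjusted p = 0.0010). PGC colonies differed from GSC colonies by -2.30 ± 0.14 (adjusted p = 0.00021). Rrm2b, the p53-inducible small subunit of ribonucleotide reductase, measured 10.97 and 10.70 in PGC colonies, 11.53 and 11.66 in GSC colonies, and 10.82 and 10.93 in sorted cells. It rose by 0.72 ± 0.14 in GSC colonies (adjusted p = 0.0056), and its difference in PGC colonies was -0.04 ± 0.14 (adjusted p = 0.85). PGC colonies differed from GSC colonies by -0.76 ± 0.14 in Rrm2b (adjusted p = 0.015). The higher genes in PGC colonies were Dctpp1, which removes surplus dCTP, by 0.62 ± 0.13, and Cad, which starts pyrimidine synthesis, by 0.44 ± 0.14. The Cad call changed in 4 of 16 alternative settings. The folate enzyme gene Mthfd1 differed by -1.19 ± 0.19 in PGC colonies and by -1.39 ± 0.19 in GSC colonies. Dck, deoxycytidine kinase, fell by 1.13 ± 0.11 in PGC colonies, and Ppat, which starts purine synthesis, differed by -1.14 ± 0.13 in GSC colonies. Between the colony groups the folate gene Shmt1 and Ppat were higher in PGC colonies, by 0.66 ± 0.11 and 0.55 ± 0.13, and the Ppat call changed in 9 of 16 alternative settings. Of the histone list 2 genes were tested. Slbp, which binds histone mRNA, fell by 0.78 ± 0.15 in GSC colonies, and its difference of -0.45 ± 0.15 in PGC colonies was a call that changed in 12 of 16 settings.

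Mitosis genes and cell cycle inhibitors were read beside these results. Of 27 mitosis genes, 24 were lower and 0 higher in PGC colonies, with a median of -1.85. In GSC colonies 25 were lower and 0 higher, with a median of -1.57. In neither was a member higher at an unadjusted limma p under 0.05. The lower shares were 88.9% and 92.6%, beside 23.2% and 24.5% of all genes. These counts include Cdk1 and Cenpf, which passed the filter only through the sorted arrays, where they are high. The largest falls were those of Kif23 and Cenpa in PGC colonies, at -2.64 ± 0.14 and -2.59 ± 0.18, and of Plk1 and Ube2c in GSC colonies, at -2.72 ± 0.65 and -2.68 ± 0.37. For both Ube2c and Plk1 the GSC colony arrays lay far apart. Ube2c measured 10.46 and 11.72 in GSC colonies and 13.86 and 13.68 in sorted cells. Its difference ranged from -3.31 to -2.05 over the alternatives. Plk1, a mitotic kinase, measured 9.84 and 12.07 in GSC colonies and 13.75 and 13.59 in sorted cells. Its difference was -1.61 with the first GSC array left out and -3.84 with the second left out, and it missed the threshold without sorted replicate 1 (-2.64; adjusted p = 0.0605). Between the colony groups Nusap1, a spindle gene, was the 1 call, lower in PGC colonies at -0.51 ± 0.13, and it changed in 12 of 16 settings. Mki67, the proliferation antigen, was named after its values were seen. It measured 13.37 and 13.73 in PGC colonies, 13.38 and 13.28 in GSC colonies, and 13.45 and 13.43 in sorted cells, and passed in no comparison. Of 13 genes of the inhibitor and p53 list, 8 were higher in each colony group, and 2 in PGC colonies and 3 in GSC colonies were lower. Among all genes 22.8% were called higher in PGC colonies and 22.5% in GSC colonies. Cdkn1a, an inhibitor of cyclin-dependent kinases that also binds the sliding clamp, measured 15.59 and 15.87 in PGC colonies, 15.61 and 15.50 in GSC colonies, and 11.01 and 10.83 in sorted cells. It rose by 4.81 ± 0.14 in PGC colonies and by 4.63 ± 0.14 in GSC colonies (adjusted p = 4.7e-06 and 3.4e-06). Cdkn2b, an inhibitor of the cyclin D kinases, rose by 5.48 ± 0.30 in PGC colonies and by 3.80 ± 0.30 in GSC colonies, and was 1.68 ± 0.30 higher in PGC than in GSC colonies (adjusted p = 0.015). Ccnd1, cyclin D1, fell by 0.70 ± 0.11 in PGC colonies and by 0.71 ± 0.11 in GSC colonies. Cdkn2c, another inhibitor of those kinases, fell by 0.67 ± 0.14 in PGC colonies. Ccnd2, cyclin D2, fell by 0.69 ± 0.20 in GSC colonies, a call that changed in 5 of 16 settings.

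Cell type markers also differed between colonies and sorted cells, in directions that varied with the cell type. Among all genes 23.2% were called lower and 22.8% higher in PGC colonies, and 24.5% lower and 22.5% higher in GSC colonies. Mesenchyme markers were higher for 9 of 9 tested genes in each colony group, with summed normalized intensities of 312300 and 309300 in PGC colonies, 564600 and 575000 in GSC colonies, and 52050 and 49750 in sorted cells. Sertoli markers were lower for 10 of 10 genes in PGC colonies and for 9 of 10 in GSC colonies, with sums of 221300 and 199500 in PGC colonies, 272400 and 269100 in GSC colonies, and 801200 and 859000 in sorted cells. The colony sums are mostly Clu, which differed by only -0.65 in PGC colonies and -0.33 in GSC colonies. The median differences of the 10 genes were -3.19 and -2.97. Amh, at 7.71 and 7.88 in PGC colonies and 7.55 and 6.70 in GSC colonies, would not have passed the filter without the sorted arrays. Macrophage and leukocyte markers were lower for 9 of 9 genes in each colony group, with sums of 7947 and 7522 in PGC colonies, 3419 and 3207 in GSC colonies, and 103900 and 109000 in sorted cells. Of these 9, 0 lay under the 30th percentile in PGC colonies, 3 and 4 in GSC colonies, and 0 in sorted cells. Endothelial markers were lower for 6 of 6 genes in each colony group, with sums of 6330 and 5713 in PGC colonies, 5636 and 5746 in GSC colonies, and 43510 and 40090 in sorted cells. Of 8 tested germ cell markers, 3 were lower in PGC colonies, and 5 were higher and 1 lower in GSC colonies. Their sums over 11 markers were 5809 and 5435 in PGC colonies, 9311 and 8971 in GSC colonies, and 8088 and 7938 in sorted cells. Dppa3, Tdrd1 and Sycp3, which mark germ cells, lay under the filter, while Ddx4, named after its values were seen, measured 9.96 and 9.72 in PGC colonies, 10.24 and 10.27 in GSC colonies, and 10.10 and 9.89 in sorted cells. Of 5 tested spermatogonial markers, 1 was higher and 1 lower in PGC colonies, and 1 was higher and 2 lower in GSC colonies. The marker higher in GSC colonies, Zbtb16, passed the filter only through the GSC colony arrays, where it is high. The sums over 8 spermatogonial markers were 15990 and 16570 in PGC colonies, 13820 and 12470 in GSC colonies, and 25240 and 25710 in sorted cells. Uchl1, at 14.08 and 13.90, was the largest term in sorted cells. The median log2 levels over the 8 markers had another order. They were 9.02 and 8.84 in PGC colonies, 9.24 and 8.62 in GSC colonies, and 8.36 and 8.48 in sorted cells. Of 4 Leydig markers, 2 were lower in PGC colonies, and 1 was higher and 2 lower in GSC colonies, with sums of 16430 and 17000 in PGC colonies, 19370 and 19960 in GSC colonies, and 58840 and 55410 in sorted cells. Both erythroid markers tested were lower in each colony group, with sums of 1367 and 1659 in PGC colonies, 577 and 593 in GSC colonies, and 3569 and 3500 in sorted cells. Of these 2 markers, 1 lay under the 30th percentile on each colony array and 0 on the sorted arrays. That marker passed the filter only through the sorted arrays, where it is high. Summed over the 47 replication genes, the intensities were 161100 and 162400 in PGC colonies, 158800 and 161900 in GSC colonies, and 279000 and 272600 in sorted cells. The part of cell type makeup in the fall of the replication genes was not tested.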

How the data were processed

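Per the labels' protocols, the authors labelled 1 µg of total RNA with Cy5 and hybridised each sample to 1 single-colour array. The deposited values are linear probe intensities, some below 0. For the scanner and its background handling, the sources used here give no description.

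Intensities were background-corrected with normexp (offset 50), put on the log2 scale and quantile-normalized in limma 3.58.1 (R 4.3.3). Of 26423 probes, 21876 had 1 gene symbol and 4547 none. A gene was represented by its brightest probe on average, and tested if at or above the 30th percentile on at least 2 of 6 arrays. One fit held all 3 groups (lmFit and eBayes, 3 residual degrees of freedom), with Benjamini-Hochberg adjustment over 15459 genes. The median SE of a difference was 0.134, with precision limited by having 6 arrays. In data simulated for GSC colonies against sorted cells, 55.2% of 67 genes changed 2-fold and 87.9% of 66 changed 4-fold were recovered. There were 8 false calls among the unchanged genes of the 15459. Far fewer genes were changed there than were called in the data.

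The members, the gene lists and the naming rule were chosen with earlier results of these data known. Levels on every array are given for members called with a difference of at least 1 on the log2 scale, moving against most members, or called between the colony groups. From each pathway list up to 2 rises and 2 falls per comparison were named, and genes added after their values were seen are marked. The alternatives covered background, normalization, filter, probe choice, groups in the fit, a replicate block and each array left out. The labels do not say whether replicate numbers pair the samples, and the main fit did not pair them. Replicate differences correlated at -0.18 (GSC and PGC colonies), -0.34 (GSC colonies and sorted cells) and 0.33 (PGC colonies and sorted cells). With 1 difference per group these values cannot decide whether a batch or pairing was shared. Promoter windows came from RefSeq (GRCm38.p6).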

Additional observations from a re-analysis of the deposited data

How the results depend on the processing

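In the simulation 67 of 15459 genes were changed 1.5-fold, and 5.97% of them were called. In the data 47.1% of all genes were called for GSC colonies against sorted cells. The adjusted threshold was therefore easier to pass than in the simulation, and the recovery rates do not carry over to the data. Replication genes were called lower in GSC colonies at falls down to 1.41-fold. Without normalization between arrays, replication genes called lower numbered 24 in GSC colonies and 19 in PGC colonies against sorted cells, with medians of -0.44 and -0.34. Calls among all genes were then 1732 lower and 8179 higher for GSC colonies, and 1838 lower and 7573 higher for PGC colonies. In the same setting the differences of GSC colonies from sorted cells turned to 0.0297 for Orc6, 0.0821 for Cdt1, 0.0258 for Rpa1, 0.404 for E2f8, 0.0809 for Ccnd2 and 0.169 for Cdkn2c. Those of PGC colonies turned to 0.0422 for Orc6, 0.471 for Cdt1, 0.0929 for Mcm4, 0.0103 for Rfc2, 0.17 for Chaf1b, 0.438 for Rrm2b and 0.104 for Slbp. Of these, E2f8 in GSC colonies and Cdt1 and Rrm2b in PGC colonies then passed as higher (limma adjusted p = 0.0243, 0.0168 and 0.0459). Differences that passed in neither setting also changed sign: in GSC colonies Ccne2 (0.297) and E2f1 (0.175), and in PGC colonies Mcm2 (0.345), E2f1 (0.312), E2f8 (0.123), Ccnd2 (0.146) and Shmt1 (0.222). The cause was not tested. Median centring gave medians of -0.86 in GSC colonies and -0.73 in PGC colonies. Leaving out 1 array at a time gave 32 to 40 genes lower in GSC colonies and 25 to 35 in PGC colonies, the lowest of each without sorted replicate 1. The median in PGC colonies then ranged from -0.88 to -0.70. Between PGC and GSC colonies the count of higher replication genes was 1 with median centring, 6 with genes at or above the 30th percentile on all 6 arrays, and 0 with only the 2 groups. In that last fit 686 of all genes were higher. With 1 array left out it ranged from 0 to 2, and the count of lower replication genes from 1 to 2. Among all genes these counts ranged from 661 to 1127 higher and from 822 to 1074 lower. With the replicate number as a block, though no pairing is stated, 1 replication gene was higher in PGC than in GSC colonies. Against sorted cells 34 were then lower in PGC colonies and 38 in GSC colonies. Rrm2, without PGC colony replicate 1, was lower in PGC colonies than in sorted cells (-0.81; limma adjusted p = 0.018).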

Other observations

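The inhibitor and p53 list held further genes that moved in the colonies. Ccng1, a p53 target that encodes cyclin G1, was higher by 2.81 ± 0.13 in PGC colonies and by 3.33 ± 0.13 in GSC colonies than in sorted cells (limma adjusted p = 1.5e-05 and 6.6e-06). Cdkn1c, an inhibitor of cyclin-dependent kinases, was higher by 1.50 ± 0.10 in PGC colonies and by 2.19 ± 0.10 in GSC colonies (adjusted p = 6.6e-05 and 1.3e-05). Ccng1 and Cdkn1c differed by -0.51 ± 0.13 and -0.69 ± 0.10 in PGC from GSC colonies, and the Ccng1 call changed in 10 of 16 alternative settings. Between the colony groups Cdkn2a, another inhibitor gene, was higher in PGC colonies by 0.88 ± 0.10 (adjusted p = 0.0029). Cdk2, the partner kinase of cyclin E, was lower than in sorted cells by 0.86 ± 0.13 in PGC colonies and by 1.46 ± 0.13 in GSC colonies, and was 0.60 ± 0.13 higher in PGC than in GSC colonies (adjusted p = 0.025). That last call changed in 6 of 16 alternative settings, among them a fit of only the 2 colony groups (adjusted p = 0.061). Dazl, a germ cell gene named after its values were seen, measured 7.42 and 7.51 in PGC colonies, under the filter's level, 10.09 and 10.12 in GSC colonies, and 8.39 and 8.91 in sorted cells. It rose by 1.45 ± 0.18 in GSC colonies relative to sorted cells (adjusted p = 0.00089).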
